A study of Mus musculus with 18 samples.

Results

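The genes described here are 9 long noncoding RNAs of mouse macrophages: Malat1 and Neat1, which are abundant RNAs of the nucleus, and the snoRNA host genes Gas5, Zfas1, Snhg1, Snhg5, Snhg6, Snhg8 and Snhg12. They were chosen by name, and all 9 were found among the 24485 genes of each of the 18 libraries. The rule used names and no measured value, although the names were put forward with earlier results of these data known.

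Bone marrow-derived macrophages (BMDMs) of Il10-/- mice (C57BL/6J), which lack the anti-inflammatory cytokine IL-10, were cultured from 3 mice. Per the methods these were 12-week-old males, and per the labels the marrow grew for 6 days in medium conditioned by L929 cells, a source of macrophage growth factor. Cells received (+)-JQ1 at 500 nM, recombinant IL-10 at 10 ng/mL or neither for 12 hours, and then LPS at 50 ng/mL or PBS for 4 hours, which gave the groups unstimulated, JQ1, IL-10, LPS, LPS + JQ1 and LPS + IL-10 with 3 libraries each. The methods name a vehicle control before LPS, and untreated, unstimulated cells as a further control. The titles call both untreated, so whether vehicle was matched between unstimulated cells and the other groups is not known. JQ1 blocks the bromodomains with which the BET proteins bind acetylated histones, LPS is the bacterial lipopolysaccharide that activates macrophages through Toll-like receptor 4, and all 6 groups share the Il10 deletion, so nothing here describes macrophages that can make IL-10.

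Malat1 gathers in nuclear speckles, the stores of splicing factors, and Neat1 is the scaffold around which paraspeckles assemble. A snoRNA host gene carries small nucleolar RNAs in its introns: splicing frees the intron, from which the snoRNA is trimmed and then guides the chemical modification of ribosomal RNA. The spliced remainder of many host transcripts, Gas5 among them, is short-lived because it is read by ribosomes and destroyed by nonsense-mediated decay, and such transcripts often begin with a run of pyrimidines, as do those of the ribosomal proteins.

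Libraries held between 6781952 and 28289498 expected counts. Malat1 took 0.388% to 1.93% of all counts and 38713 to 283821 counts per library, and Neat1 had 1736 to 18196 counts. The snoRNA hosts were read far less deeply: Gas5 had 120 to 577 counts, Zfas1 101 to 517, Snhg6 44 to 183, Snhg8 32 to 156, Snhg5 21 to 93, Snhg12 10 to 89 and Snhg1 9 to 77. Changes of the lower members are correspondingly imprecise, and a floor of 3 counts corresponded to 0.106 to 0.442 CPM (counting error only). The 6 macrophage marker genes all had rows, with a summed level of 14033 to 28942 TPM. Lists for T cells, B cells, neutrophils, dendritic cells, fibroblasts and red cell precursors each summed to at most 37.6 TPM, and Ly6g of neutrophils was at 0 throughout. Reads were still assigned to Il10 in every library, at 27.1 to 177 normalised counts, and with no wild-type library in the series they do not check the deletion. In bulk RNA, fewer cells of a type and less RNA per cell cannot be told apart.

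The TPM values, which are scaled for transcript length, put Malat1 first in every group. Unstimulated cells held 1477, 1270 and 1270 TPM of Malat1 in replicates 1, 2 and 3, and 299, 225 and 250 TPM of Neat1. Snhg6 followed at 47.1 to 56.0 TPM and Zfas1 at 41.1 to 44.2 TPM. Snhg8, Gas5, Snhg12 and Snhg1 had mean levels of 17.6, 15.3, 14.7 and 14.3 TPM, and the ranges of neighbours in that order overlapped. Snhg5 was lowest at 6.19 to 8.26 TPM. In LPS-stimulated cells the order changed: Zfas1 at 59.4 to 65.6 TPM stood above Neat1 at 50.5 to 54.3 TPM, and Snhg12, at 2.60 to 3.33 TPM, became the lowest, with a range that overlapped that of Snhg5 (2.57 to 5.06 TPM).

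In the mm9 annotation (GENCODE vM1) Malat1 lies at chr19:5795690-5802671 and Neat1 close by at chr19:5824708-5845478, both on the minus strand. Gas5 lies at chr1:162964553-162968670 (plus), Zfas1, there named 1500012F01Rik, at chr2:166888434-166891362 (plus), Snhg1 at chr19:8797986-8800932 (plus), Snhg5 at chr9:88415894-88417721 (minus) and Snhg12 at chr4:131864593-131866939 (plus). Snhg6 and Snhg8 were not matched by name in that annotation. The annotation places 26 snoRNA genes inside these members, of which 7 had rows in the files and 3 had any reads. Snord22, inside Snhg1, had 22 to 89 counts in all 18 libraries. Annotated exons of Snhg1 cover all 126 bases of Snord22 on the same strand, and whether these reads came from the snoRNA was not tested. Annotated exons of Gas5, Zfas1 and Snhg12 cover snoRNAs on the same strand too. The exons of Malat1 share 425 bases with Gm20417 on the opposite strand, so that reads of this stretch could not be told apart if strand was not used in counting.

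The first bases of the snoRNA hosts are shown because a pyrimidine run at the start is known for this class of transcript. RefSeq promoter windows (GRCm38.p6) existed for 7 members, not for Neat1 and Snhg6, and the 40 bases before and 30 from the start were found again in mm9 by exact match, at chr1:162965257-162965326 for Gas5, chr19:8797937-8798006 for Snhg1, chr9:88417706-88417775 for Snhg5, chr3:123211225-123211294 for Snhg8, chr4:131864553-131864622 for Snhg12 and chr2:166888394-166888463 for Zfas1. The sequences run 5′ to 3′ along the transcript, and capitals mark the letters TATA, wholly within 40 to 20 bases before the start, and runs of at least 5 letters that are each C or T from 10 bases before to 20 bases from it.
Gas5: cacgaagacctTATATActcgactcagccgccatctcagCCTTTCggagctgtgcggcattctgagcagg
Snhg1: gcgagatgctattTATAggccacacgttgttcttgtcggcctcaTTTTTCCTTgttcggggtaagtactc
Snhg5: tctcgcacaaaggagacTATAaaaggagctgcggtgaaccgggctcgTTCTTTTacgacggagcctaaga
Snhg8: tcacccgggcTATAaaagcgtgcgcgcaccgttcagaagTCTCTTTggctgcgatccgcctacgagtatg
Snhg12: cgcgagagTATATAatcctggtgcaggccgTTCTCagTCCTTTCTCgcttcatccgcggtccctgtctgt
Zfas1: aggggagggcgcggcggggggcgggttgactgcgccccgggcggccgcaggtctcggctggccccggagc
Gas5, Snhg1, Snhg5, Snhg8 and Snhg12 hold both features, and Zfas1 holds neither in this window. TATA reads the same on both strands, the pyrimidine run was searched on the transcript's strand, and the search windows of these features do not overlap. Of 32851 promoter windows of all genes, 5.5% hold TATA there, 46.4% hold such a run and 2.8% hold both. Gas5 has a further RefSeq start upstream, in which neither was found, and Malat1 has neither. A match of letters is a description and not a binding site.

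Below, a normalised read count is the expected count divided by the size factor that DESeq2 estimated as a median of ratios, a log2 fold change comes with its standard error (SE), and a gene is called changed at an adjusted p under 0.05 over all genes tested. The scaling matters for comparisons with LPS. When libraries were scaled to their total counts in place of the median of ratios, the median log2 fold change of all genes between LPS and unstimulated cells moved from -0.03 to -0.98, and on the TPM scale it was -0.70. The median moved from 0.01 to -0.16 for JQ1 against unstimulated cells, and from -0.09 to 0.29 for LPS + JQ1 against LPS.

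**Figure D1:**
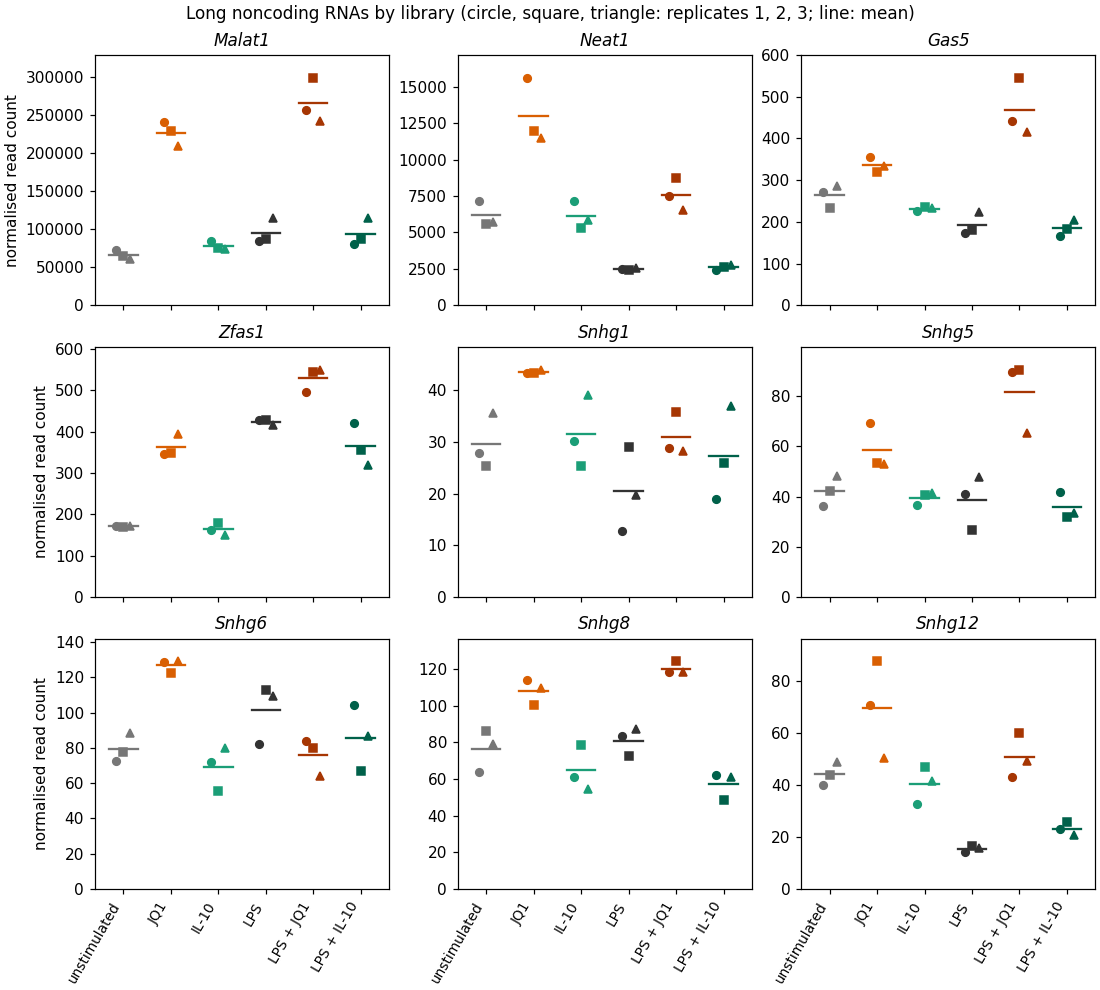
Normalised read count (y axis, linear and starting at 0, with its own scale in each panel) of the 9 noncoding RNAs in each of 18 libraries, by group (x axis); circles, squares and triangles are replicates 1, 2 and 3, and the line is the mean of the group. All JQ1 libraries of Malat1 lie at 209800 or more with or without LPS, whereas Neat1 and Snhg12 drop in the LPS and LPS + IL-10 libraries and stay higher in LPS + JQ1.

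The question of the first comparison is what BET inhibition did to these RNAs in resting cells. JQ1 raised 7 of the 9, lowered none, and left Snhg1 and Snhg5 short of the threshold. Over all genes tested, 45.7% were called in this comparison, and 21.9% were called higher. Malat1 had 72390, 65470 and 61190 normalised counts in unstimulated cells and 240900, 228300 and 209800 with JQ1, so that every JQ1 library held more than any unstimulated one. The rise was 3.41-fold (log2 1.77, SE 0.14, adjusted p = 5.58e-37). Neat1 went from 7187, 5598 and 5711 to 15610, 11940 and 11450 normalised counts, again without overlap, a rise of 2.11-fold (log2 1.08, SE 0.14, adjusted p = 1.37e-13).

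Among the snoRNA hosts Zfas1 stood apart in resting cells given JQ1. Its 3 unstimulated libraries lay within 170.8 to 172.0 normalised counts, and the JQ1 libraries had 346.8, 348.0 and 394.7, a 2.12-fold rise (log2 1.08, SE 0.11, adjusted p = 6.35e-20). Snhg6 rose 1.59-fold, Snhg12 1.56-fold, Snhg8 1.44-fold and Gas5 1.26-fold, with adjusted p = 0.001, 0.0249, 0.00648 and 0.0184. Snhg1 (log2 0.53, SE 0.29, adjusted p = 0.126) and Snhg5 (log2 0.47, SE 0.24, adjusted p = 0.0948) had JQ1 libraries above all unstimulated ones as well, with 95% intervals of -0.04 to 1.09 and 0.004 to 0.93. The 4 smaller calls were fragile. Without replicate 1 (6 libraries, taken to be 1 mouse by the number in their titles) they gave log2 0.59 for Snhg6, 0.56 for Snhg12, 0.36 for Snhg8 and 0.33 for Gas5, with adjusted p = 0.0973, 0.29, 0.356 and 0.206. Without replicate 2 Snhg12 and Gas5 gave adjusted p = 0.332 and 0.122, and without replicate 3 Snhg8 gave 0.105. Leaving out unstimulated replicate 1, which stood apart with more Znfx1 (5190 against 3536 and 3460 normalised counts), or replicate 2, the shallowest of that group, alone ended the call of Snhg12 both times (adjusted p = 0.117 and 0.0518), that of Snhg8 once (0.0874, without replicate 1) and that of Gas5 once (0.0904, without replicate 2). On the TPM scale and with total-count scaling Gas5, Snhg8 and Snhg12 were not called, at TPM log2 values of 0.14, 0.30 and 0.40.

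**Figure D2:**
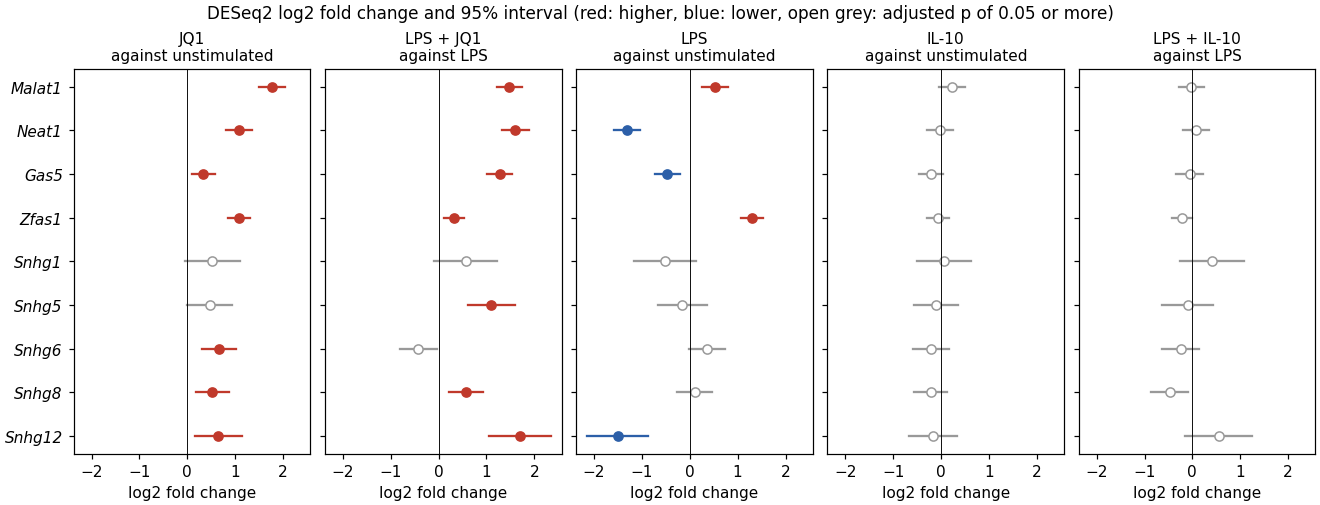
DESeq2 log2 fold change (x axis) of each noncoding RNA (y axis) in 5 comparisons, one per panel; points are estimates and bars 95% intervals, filled red where called higher, filled blue where called lower and open grey where not called. JQ1 gives 7 red points without LPS and 7 with LPS, and both IL-10 panels hold open points only.

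The LPS response without pretreatment was mixed. Neat1 fell from 5598 to 7187 normalised counts in unstimulated cells to 2518, 2430 and 2533 with LPS, which was 2.47-fold lower (log2 -1.31, SE 0.14, adjusted p = 4.76e-20). Snhg12 fell from 40.1, 44.0 and 48.9 to 14.1, 16.5 and 16.0 normalised counts, 2.84-fold lower (log2 -1.51, SE 0.33, adjusted p = 9.93e-06). Gas5 fell from 272.3, 233.4 and 284.9 to 172.5, 179.9 and 224.7, 1.38-fold lower (log2 -0.47, SE 0.14, adjusted p = 0.00103). The LPS libraries of these 3 genes lay below all unstimulated ones, and their values stayed negative under every scaling tried; only Gas5 lost its call when a mouse was left out (log2 -0.36, adjusted p = 0.108, without replicate 1).

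Zfas1 rose with LPS to 428.4, 427.0 and 415.0 normalised counts, 2.47-fold (log2 1.30, SE 0.12, adjusted p = 6.05e-29), and stayed higher under total-count scaling (log2 0.37) and on the TPM scale (0.51). Its count is uncertain by reads of the opposite strand, as given below for Znfx1. Malat1 was called higher at 84050, 87630 and 114700 normalised counts (log2 0.53, SE 0.14, adjusted p = 0.00023), but its sign flipped to log2 -0.40 under total-count scaling, where it was called lower (adjusted p = 0.00821), and to -0.26 on the TPM scale, where it was not called. Relative to the median of all genes Malat1 was higher by 0.56, 0.58 and 0.43 under the 3 scalings. Snhg1, Snhg5, Snhg6 and Snhg8 were not called (log2 -0.53, -0.15, 0.35 and 0.10), and each was called lower under total-count scaling and on the TPM scale, with log2 values of -1.46 and -1.23 for Snhg1, -1.08 and -0.78 for Snhg5, -0.58 and -0.44 for Snhg6 and -0.83 and -0.64 for Snhg8. The 5 members called compare with 64.5% of all genes tested.

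**Figure D3:**
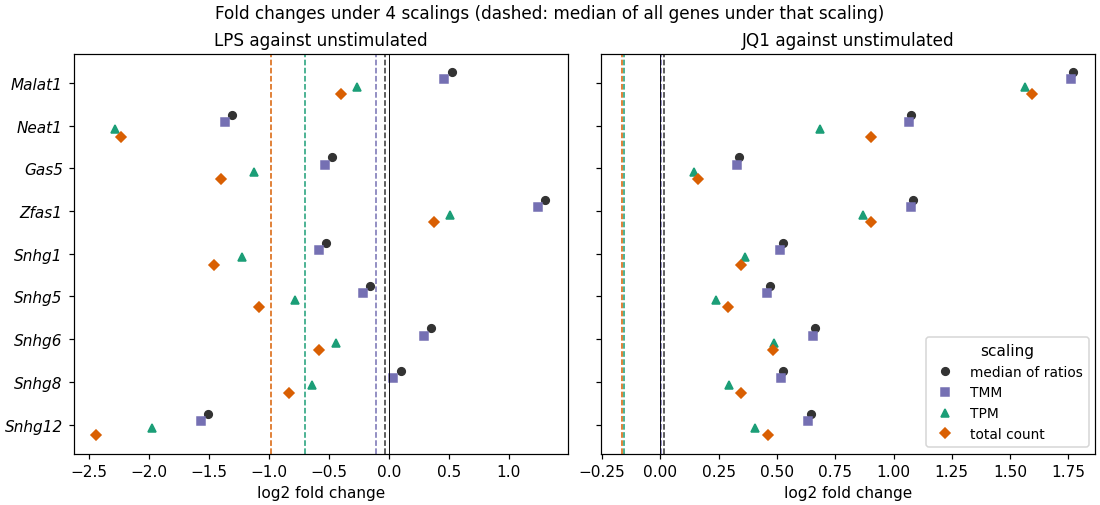
Log2 fold change (x axis) of each noncoding RNA (y axis) under 4 scalings, for LPS against unstimulated cells (left) and JQ1 against unstimulated cells (right); dashed lines mark the median of all genes under the scaling of the same colour. In the LPS panel the points of each gene shift with the dashed lines, which lie at -0.03, -0.11, -0.70 and -0.98, and Malat1, Snhg6 and Snhg8 cross 0.

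The next comparison addresses BET inhibition during LPS stimulation. LPS + JQ1 cells held more of 7 members than LPS cells, in a comparison in which 57.3% of all genes tested were called and 24.4% called higher. The 7 were Malat1, Neat1, Gas5, Zfas1, Snhg5, Snhg8 and Snhg12. Snhg12 went to 43.07, 60.03 and 49.24 normalised counts, 3.25-fold above LPS alone (log2 1.70, SE 0.33, adjusted p = 7.62e-07), and its LPS + JQ1 libraries overlapped the range of unstimulated cells. Neat1 went to 7514, 8731 and 6528, 3.04-fold above LPS alone (log2 1.61, SE 0.14, adjusted p = 2.24e-29), and Malat1 to 256400, 298900 and 242700, 2.79-fold (log2 1.48, SE 0.14, adjusted p = 1.56e-26).

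Gas5 reached its highest level of any group in LPS + JQ1, at 440.6, 545.5 and 414.8 normalised counts, 2.43-fold above LPS (log2 1.28, SE 0.13, adjusted p = 2.6e-21). Snhg5 went from 26.9 to 47.9 with LPS to 65.2 to 90.6 with LPS + JQ1, a 2.15-fold rise (adjusted p = 2.27e-05). Snhg8 rose 1.49-fold and Zfas1 1.25-fold (adjusted p = 0.00284 and 0.00426), and these were the weakest calls: without replicate 2 they gave adjusted p = 0.0976 and 0.0974, without replicate 1 Snhg8 gave 0.0644, and without replicate 3 Zfas1 gave 0.0807. Snhg6 had the opposite sign (log2 -0.42, SE 0.20, adjusted p = 0.0565), at -0.05 under total-count scaling; it was called lower with effective lengths in the fit (adjusted p = 0.0497) and with a filter of 10 counts in 3 libraries (0.0433). Snhg1 was not called (log2 0.57, adjusted p = 0.141), though it was called higher under total-count scaling (log2 0.94) and on the TPM scale (log2 0.83). Set against LPS + IL-10 in place of LPS, LPS + JQ1 raised the same 7 members, from 1.46-fold for Zfas1 to 2.90-fold for Neat1, with 55.3% of all genes called; these comparisons share the LPS + JQ1 libraries.

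How LPS acted after JQ1 differed from member to member. In JQ1-pretreated cells LPS raised Zfas1 (log2 0.54, adjusted p = 4.48e-07) and Gas5 (log2 0.47, adjusted p = 0.00026) and lowered Neat1 (log2 -0.78, adjusted p = 8.26e-08) and Snhg6 (log2 -0.73, adjusted p = 0.000248), against 58.6% of all genes called. With total-count scaling the rises of Zfas1 and Gas5 came to log2 0.17 and 0.10 and were not called, and on the TPM scale that of Gas5 (0.19) was not called. The same settings called Snhg1 (-0.86 and -0.76) and Snhg12 (-0.82 and -0.68) lower, which DESeq2 with the median of ratios did not (-0.49 and -0.45). Leaving out mice ended the call of Gas5 once (log2 0.32, adjusted p = 0.0894, without replicate 2) and of Snhg6 once (log2 -0.61, adjusted p = 0.0551, without replicate 3). Malat1 had log2 0.23 over all libraries but -0.14 under total-count scaling and -0.04 on the TPM scale. It was called higher without replicate 3 (log2 0.25, adjusted p = 0.023) and when only the groups compared were fitted (log2 0.29, adjusted p = 0.000432). Snhg6 stood at 128.9, 122.2 and 129.1 normalised counts with JQ1 alone and at 83.9, 80.0 and 64.0 with LPS + JQ1, without overlap.

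A test of the interaction asked whether the effect of LPS differed with and without JQ1, and 5 members passed it, against 41.5% of all genes tested. Gas5 changed direction: LPS lowered it without JQ1 and raised it with JQ1, a difference of log2 0.94 (SE 0.18, adjusted p = 1.64e-06). This difference was called in all 17 alternatives, but its parts were less firm. The fall of Gas5 was not called without replicate 1 (adjusted p = 0.108). Its rise was not called without replicate 2 (adjusted p = 0.0894), under total-count scaling (log2 0.10) or on the TPM scale (0.19). Neat1 was lowered less by LPS after JQ1 (log2 0.53, SE 0.20, adjusted p = 0.0201). Snhg12, which fell with LPS alone and had log2 -0.45 (not called) with LPS after JQ1, differed by log2 1.06 (SE 0.41, adjusted p = 0.0283). Zfas1 was raised less (log2 -0.76, SE 0.15, adjusted p = 5.87e-06), and Snhg6 turned from a value above 0 that was not called to a fall (log2 -1.09, SE 0.27, adjusted p = 0.000254). The interaction of Neat1 was lost without replicate 2 (log2 0.41, adjusted p = 0.187) and without unstimulated replicate 1 alone (log2 0.41, adjusted p = 0.0827), and that of Snhg12 when any 1 of the 3 mice was left out (adjusted p = 0.0984 to 0.289). Under total-count scaling, which moved the median interaction of all genes to 0.51, the values of Zfas1 (-0.20) and Snhg6 (-0.53) were not called, and on the TPM scale that of Zfas1 (-0.26) was not. Snhg6 was called by limma on log2(TPM + 1), but not on log2(TPM + 0.1) (-0.63, adjusted p = 0.0524) or without a filter (-0.62, adjusted p = 0.0782). Total-count scaling and limma on log2(TPM + 1) called Snhg5 (1.19 and 0.96) and Snhg8 (0.61 and 0.52). edgeR called Snhg5 (0.75, adjusted p = 0.0455), so that edgeR and limma on log2(TPM + 1) each called 6 members. Malat1 (log2 -0.29, adjusted p = 0.226) did not pass, and its sign changed to 0.26 under total-count scaling and 0.23 on the TPM scale.

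With exogenous IL-10 no member was called by DESeq2. In resting cells 0 members were called and 0 had an unadjusted p under 0.05, edgeR and limma on TPM also called 0, and 2.81% of all genes tested were called. Malat1 came closest, at 84020, 75070 and 74300 normalised counts against 61190 to 72390 in unstimulated cells (log2 0.23, 95% interval -0.04 to 0.50), without overlap; fitted on these 2 groups alone it was called (adjusted p = 0.0481). The 95% interval of Neat1 ran from -0.29 to 0.26, which leaves room for changes of that size. During LPS stimulation 0 members were called, against 17.2% of all genes, with 2 at an unadjusted p under 0.05 (Snhg8, log2 -0.48, and Zfas1, log2 -0.22); edgeR called 0 and limma on TPM called 1, Snhg12 (log2 0.53). LPS acted on IL-10-pretreated cells by lowering Neat1 (log2 -1.22, adjusted p = 1.14e-17), Snhg12 (log2 -0.79, adjusted p = 0.0117) and Gas5 (log2 -0.32, adjusted p = 0.0273) and raising Zfas1 (log2 1.15, adjusted p = 4.42e-24), against 67% of all genes called. When any 1 of the 3 mice was left out Snhg12 was not called there (adjusted p = 0.0531 to 0.147), nor was Gas5 without replicate 1 or 2 (0.279 and 0.12), while Malat1 (log2 0.28, not called) was called higher without replicate 1 (log2 0.45, adjusted p = 0.00915) but lower under total-count scaling (-0.55, adjusted p = 0.000221) and on the TPM scale (-0.46, adjusted p = 0.02). The interaction of LPS with IL-10 passed for 0 members by DESeq2 (0 at an unadjusted p under 0.05, 0 by edgeR and 0 by limma), against 7.44% of all genes.

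Neat1 was the only member that the authors' annotation gave more than 1 transcript, and RSEM reported for it a length weighted over the short and the long isoform. The full-length isoform is the one that builds paraspeckles. The weighted length was 3524, 3463 and 3415 bases in unstimulated cells and 3558, 3552 and 3559 with IL-10. It was longer with JQ1 (3874, 4077 and 3751 bases), with LPS (3921, 3941 and 4228) and with LPS + IL-10 (3780, 3754 and 4027), and longest with LPS + JQ1 (4491, 4870 and 4256). Every library of the 5 other groups lay above the unstimulated range of 3415 to 3524 bases, those with IL-10 alone by the least. This is a description, with no test, of RSEM's estimate of how reads divide between overlapping isoforms. TPM is divided by this length, and the fall of Neat1 with LPS relative to the median of all genes was log2 -1.58 on the TPM scale and -1.28 in normalised counts; how much of that gap is length was not tested, and Malat1, whose length is constant, moved from 0.56 to 0.43 between these scales.

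**Figure D4:**
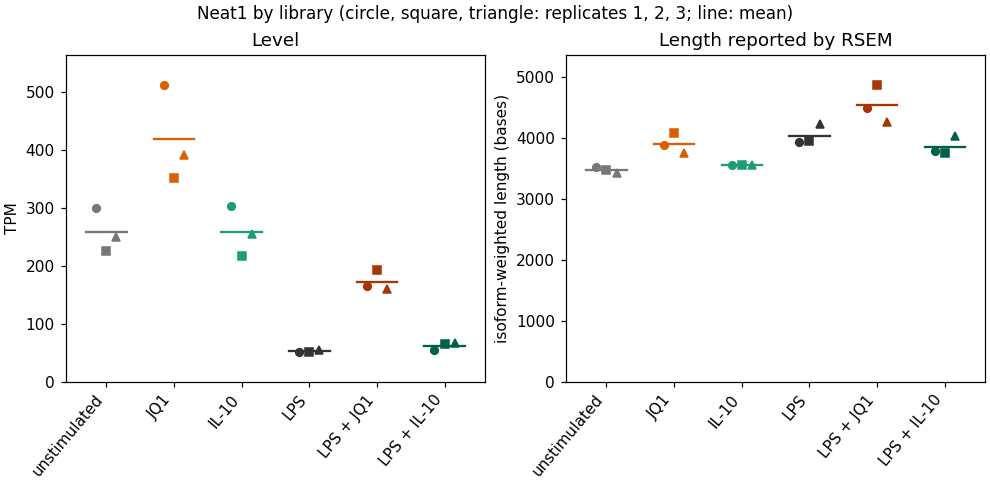
Neat1 by library and group (x axis): TPM on the left and the isoform-weighted length in bases reported by RSEM on the right, both linear from 0; circles, squares and triangles are replicates 1, 2 and 3, and lines are group means. LPS libraries sit near 50 TPM and LPS + JQ1 libraries at 159 to 193 TPM, and the LPS + JQ1 libraries have the greatest lengths, 4256 to 4870 bases.

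In the mm9 annotation a protein-coding gene starts within 1000 bases of the start of 3 members on the opposite strand, head to head with them. Znfx1, a helicase of antiviral defence, starts 81 bases from Zfas1. Both rose with LPS, Znfx1 from 3460 to 5190 up to 26610 to 29650 normalised counts (log2 2.81, SE 0.12, adjusted p = 7.91e-129), but JQ1 moved them apart: Znfx1 fell in resting cells (log2 -0.60, adjusted p = 1.4e-06) and under LPS (log2 -0.78, adjusted p = 4.96e-11), where Zfas1 rose. Their annotated exons share 82 bases on opposite strands, of 1901 exonic bases of Zfas1 in that annotation. The Zfas1 transcript used for counting was 738 bases long. RSEM under default settings does not use strand, so the Zfas1 count is uncertain by reads from that stretch. Znfx1 had far more counts, and how much of the rise of Zfas1 with LPS came from such reads was not tested.

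Slc3a2, the heavy chain of amino acid transporters, starts 127 bases from Snhg1 and rose with LPS (log2 1.07, SE 0.08, adjusted p = 7.67e-41; 0.14 under total-count scaling), while Snhg1 had log2 -0.53 and was not called. JQ1 raised Slc3a2 slightly in resting cells (log2 0.28, adjusted p = 0.00164), and under LPS the value was 0.01 (adjusted p = 0.905). Zbtb37, a zinc finger gene, starts 427 bases from the annotated start of Gas5. The Gas5 start in the sequence shown above lies 744 bases downstream of that annotated start. Zbtb37 was not called in any of the 10 comparisons and lay at 66.9 to 93.7 normalised counts, whereas Gas5 was called in 7 of them.

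**Figure D5:**
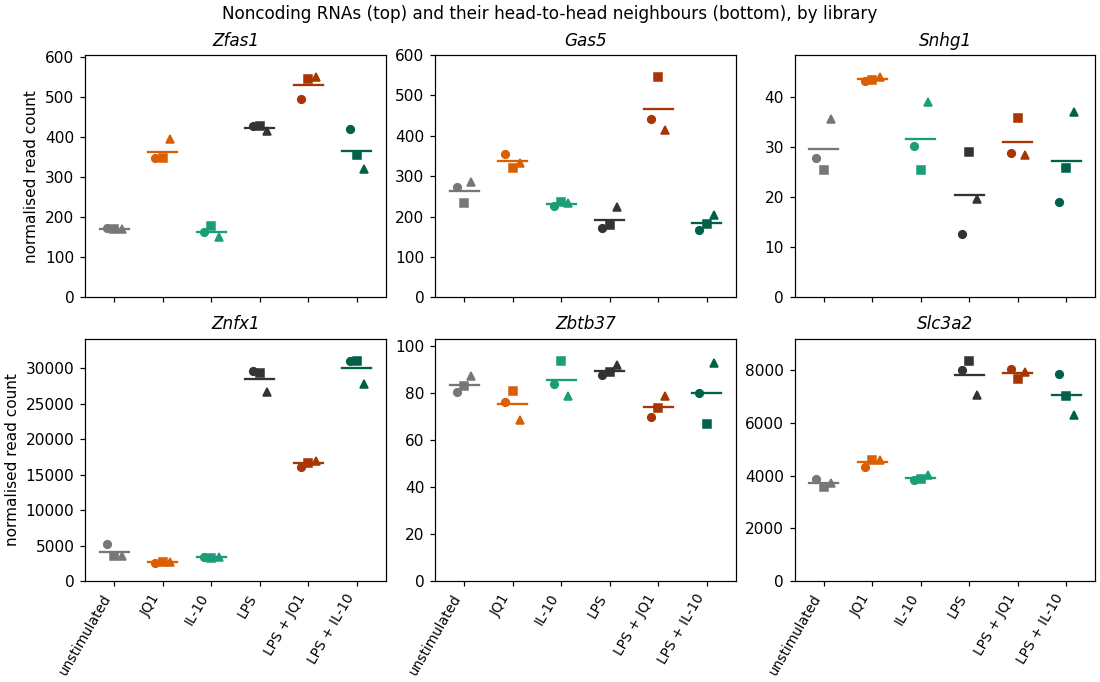
Normalised read count (y axis, linear from 0) by library and group (x axis) of Zfas1, Gas5 and Snhg1 (top) and of the genes that start head to head with them, Znfx1, Zbtb37 and Slc3a2 (bottom); circles, squares and triangles are replicates 1, 2 and 3, and lines are group means. Zfas1 and Znfx1 both rise with LPS, and with JQ1 Zfas1 is higher and Znfx1 lower.

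Other genes of the same pathways were taken from fixed lists and are given as counts, without a test of the list. Beside them, 45.7% of all genes tested were called with JQ1 in resting cells, 21.9% higher and 23.7% lower. With LPS 64.5% were called, 31.6% higher and 32.9% lower. For LPS + JQ1 against LPS 57.3% were called, 24.4% higher and 32.9% lower. Of 10 further noncoding snoRNA hosts tested, JQ1 raised 1 in resting cells, Snhg20 (log2 0.56, adjusted p = 0.00554). JQ1 raised 5 of the 7 hosts among the members there, but the calls of Gas5, Snhg6, Snhg8 and Snhg12 were fragile, as given above. The medians were 0.03 and 0.53 beside -0.001 over all genes, and the read depth of these sets was not compared. With LPS 3 of the 10 fell and 1 rose, Snhg20 at log2 -1.42 and Snhg4 at -1.29 among those that fell, and with LPS + JQ1 against LPS 3 rose and none fell, Snhg4 at log2 1.38, Snhg20 at 0.65 and Snhg9, a gene of few counts. Of 13 protein-coding snoRNA hosts 9 rose with JQ1 in resting cells, among them Ncl (nucleolin, log2 0.76) and Eif4a1 (a helicase of translation initiation, 0.52), none fell, and the median was 0.42. With LPS + JQ1 against LPS 5 of these rose, Nop56 by log2 1.15, and 2 fell, with Hspa8, the constitutive heat shock protein, at -0.77.

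Genes of the snoRNA particles and of their assembly were called in both directions with JQ1. Over all genes tested, 45.7% were called with JQ1 in resting cells and 57.3% under LPS. Of 10 genes listed for the box C/D particle and its assembly JQ1 alone raised 1, Nop56 (log2 0.42), and lowered 2, Ruvbl1 (log2 -1.02) and the methyltransferase Fbl (-0.23), and under LPS 4 were higher and 3 lower with JQ1. Of 6 genes listed for the box H/ACA particle and its assembly JQ1 alone raised Nop10 (log2 1.05) and lowered 4, among them Gar1 (-1.07) and Naf1 (-0.75), and under LPS 2 were higher and 3 lower. Of 10 factors of nonsense-mediated decay, 6 were higher and 1 lower with JQ1, among those higher Upf3b (log2 0.69) and Smg6, the endonuclease of the pathway (0.43), with a list median of 0.33. Under LPS 3 were higher with JQ1, including Upf3b (log2 1.32) and Smg6 (0.81), and 3 lower.

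Genes for proteins of the nuclear bodies of Neat1 and Malat1 were listed too, and the values below are of their RNA, since protein was not measured. Over all genes tested, 31.6% were called higher with LPS, 21.9% with JQ1 in resting cells and 24.4% with JQ1 under LPS. Of 14 paraspeckle proteins 12 were called higher with LPS and 1 lower, where Neat1 fell, with Nono at log2 1.80 and Taf15 at 1.59 and a median of 0.95. Under total-count scaling Nono and Taf15 stayed higher (0.87 and 0.67), but over the list 5 were called higher and 5 lower. JQ1 raised 4 and lowered 1 in resting cells, and under LPS 4 were higher, Rbm14 at log2 0.75 among them, and 6 lower, with Nono at -0.94 and Ewsr1 at -0.74. Of 12 nuclear speckle proteins JQ1 raised 9 in resting cells and lowered none, with Srsf5 at log2 0.76, Srsf7 at 0.63 and Srrm2, a core speckle protein, at 0.54, and under LPS 3 were higher and 1 lower. LPS raised 11 of the 12, Srsf3 at log2 2.22 and Srsf7 at 1.42, but with total-count scaling 2 were called higher and 8 lower.

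The other lists depended on the scaling in the LPS comparison too. Total-count scaling called 75.7% of all genes for LPS against unstimulated cells, and 20.1% of those called were higher. For LPS + JQ1 against LPS it called 58.2%, and 64.9% of those called were higher. With the median of ratios LPS raised 7 and lowered none of the protein-coding hosts, raised 6 and lowered 1 of the box C/D genes, raised 3 and lowered 1 of the box H/ACA genes and raised 7 and lowered 2 of the decay factors; with total-count scaling the counts were 0 and 12, 1 and 6, 0 and 5, and 1 and 5. For LPS + JQ1 against LPS, total-count scaling gave 10 higher and 1 lower for the protein-coding hosts, 7 and 1 for box C/D, 2 and 1 for box H/ACA, 6 and 1 for the decay factors, 8 and 2 for paraspeckle and 10 and 0 for nuclear speckle proteins. IL-10 in resting cells called 1 gene higher, Hspa8, and 1 lower, Nop56, over the 7 lists, Nop56 standing in 2 of them, against 2.81% of all genes tested.

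Patterns over the 6 group means were compared by the root mean square difference of centred variance-stabilised values, among 8378 genes whose normalised counts averaged 100 or more. Nearest to Malat1, whose means spanned 2.00 on the log2 scale, were Ahi1, a cilium gene (difference 0.15), Ctr9, a subunit of the PAF1 elongation complex (0.20), and Sesn3, a stress-induced sestrin (0.22). Nearest to Neat1 (span 2.36) were Slc25a30 (0.08), Cdk5rap3 (0.11) and Mapk1ip1 (0.11), and nearest to Gas5 (span 1.30) were Znhit2 (0.07), the histone chaperone Nasp (0.09) and Actn4 (0.09). Among the members themselves Gas5 and Snhg5 were the closest pair (0.13), followed by Snhg5 and Snhg8 (0.15), and Neat1 and Zfas1 the most distant (1.1). The minimum count was not applied to the members. Snhg5 had group means of 35.7 to 81.8 normalised counts, so the distances of the closest pairs rest partly on low counts.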

How the data were processed

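Stranded, ribosomal RNA-depleted paired-end libraries were made by the authors, reads were extracted with TagDust, aligned to mm9 with STAR and quantified over RefSeq transcripts with RSEM 1.2.31 under default settings. Expected counts, as deposited, divide reads among matching transcripts and were rounded here. The deposited TPM values are the authors' relative abundances scaled for length, and the deposited lengths are RSEM's isoform-weighted values. The authors' FPKM values were not used. The range of total counts per library is in the report.

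Groups and replicates came from sample titles. All 18 libraries were fitted with the DESeq2 1.42.0 Wald test (R 4.3.3) with size factors from the median of ratios, a term for group alone and Benjamini-Hochberg adjustment at 0.05. edgeR 4.0.16 and limma 3.58.1 on log2(TPM + 1), for which genes needed a TPM of at least 1, were among 17 alternatives. The tests were checked on simulated counts. Replicate numbers in the titles were taken to name the mouse and so to pair libraries across groups. Correlations of same-numbered deviations ran from -0.17 to 0.58 over 8 comparisons. Their means ran from -0.065 for LPS + JQ1 against LPS + IL-10 to 0.4 for LPS + IL-10 against LPS. p-values measure the spread between libraries of 3 mice. Replicate 1 was sequenced on lane 7, replicate 3 on lane 8 and replicate 2 on lane 7 without LPS and 8 with it. Replicates of a group differed beyond sampling noise (chi-square per degree of freedom of at least 4.14 in 18 pairs).

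The members and the gene lists (7 lists of snoRNA hosts, snoRNP proteins, decay factors, paraspeckle and nuclear speckle proteins) were chosen with earlier results of these data known. Named genes were the 9 members, Il10, head-to-head neighbours, up to 3 called genes of a list with the lowest adjusted p per comparison, and the 3 genes nearest in pattern to Malat1, Neat1 and Gas5. Some genes that this rule names are not reported here. Of the 9 members, 7 were found in GENCODE vM1, 1 by an older symbol.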

Additional observations from a re-analysis of the deposited data

Results flagged for a closer look

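The effect of LPS differed between cells with and without JQ1 for 5 of the 9 noncoding RNAs, by a DESeq2 test of the difference itself over 3 libraries in each of 4 groups, against 41.5% of all genes tested. The difference in log2 fold change was 0.94 for Gas5 (SE 0.18, adjusted p = 1.64e-06), -0.76 for Zfas1 (SE 0.15, adjusted p = 5.87e-06), -1.09 for Snhg6 (SE 0.27, adjusted p = 0.000254), 0.53 for Neat1 (SE 0.20, adjusted p = 0.0201) and 1.06 for Snhg12 (SE 0.41, adjusted p = 0.0283). Snhg12 lost the call when any 1 of the 3 mice was left out, Neat1 without replicate 2 or unstimulated replicate 1, and Zfas1 and Snhg6 under total-count scaling (-0.20 and -0.53). By limma on log2(TPM + 1), on log2(TPM + 0.1) and without a filter Zfas1 was not called (adjusted p = 0.0644, 0.064 and 0.0774). Snhg6 was not called by limma on log2(TPM + 0.1) or without a filter (adjusted p = 0.0524 and 0.0782).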

How the results depend on the processing

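Of 1530 values of single members under 17 alternatives, 1403 kept their side of the threshold (52 of these, called in neither fit, changed sign), 55 lost the call, 53 gained one and 19 reversed. The replicate block, which pairs libraries by replicate number, changed no call of a member and moved no log2 fold change by more than 0.055, the move of Snhg12 in the interaction of LPS with IL-10 (0.71 without the block and 0.77 with it). Lane as a term changed 1 call, that of Snhg1 in LPS + JQ1 against JQ1 (log2 -0.62, adjusted p = 0.0439). Leaving out each mouse in turn gave 4 to 5 members called for LPS against unstimulated, 3 to 6 for JQ1 against unstimulated, 2 to 3 for LPS + IL-10 against IL-10 and 3 to 4 for the interaction of LPS with JQ1, against 5, 7, 4 and 5 with all libraries. Removing unstimulated replicate 1 or 2 alone was added after the data were seen.

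Scaling moved more. For LPS against unstimulated cells 9 members were called under total-count scaling (1 higher, 8 lower; 75.7% of all genes called) and 8 by limma on TPM at either pseudocount, 1 or 0.1 (1 higher, 7 lower; 87% and 86.6%), against 5 (2 higher, 3 lower; 64.5%) in the report. For JQ1 against unstimulated cells these settings called 4 members (45.6% to 51.3% of all genes), and limma without a filter on TPM called 3, against 7 in the report. For LPS + IL-10 against IL-10 they called 9 (74.2% to 85.6% of all genes), against 4 in the report. Fits of only the groups compared called 1 member for IL-10 against unstimulated, and limma on TPM at either pseudocount called 1 for LPS + IL-10 against LPS, against 0 in the report.

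Reversed values of LPS against unstimulated, under total-count scaling, limma on log2(TPM + 1) and log2(TPM + 0.1), were -0.40, -0.26 and -0.26 for Malat1, -0.58, -0.44 and -0.45 for Snhg6 and -0.83, -0.64 and -0.68 for Snhg8, and without a filter -0.26 for Malat1 and -0.64 for Snhg8. For LPS + IL-10 against IL-10 they were -0.55, -0.46 and -0.46 for Malat1 and -0.51, -0.45 and -0.46 for Snhg6, and without a filter -0.46 and -0.45. The cause was not tested. Low counts limit Snhg1, Snhg5 and Snhg12 most.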
